A study of Mus musculus with 23 samples.

Results

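The miRNA content of the olfactory bulb, the forebrain relay of smell, was set directly against that of the cerebellum, the hindbrain centre of motor coordination, in wild type C57BL/6 mice. The comparison used 3 olfactory bulb and 3 cerebellum libraries, 6 of the 23 libraries of the series, all chosen by their labels. Each was a small RNA library of total RNA from the dissected region, made with the TruSeq Small RNA kit after TRIZOL extraction. The other libraries came from cortex and hippocampus of wild type mice and from the same 4 regions of Cdr1as knockout mice, which lack the locus of a neuronal circular RNA. The 6 knockout libraries of the same 2 regions serve below as a separate set, with 3 libraries a region. The age of the mice is not given in the sources used here. No label says if the libraries of a group are from separate animals, and the p-values then reflect only the spread between samples, which may be technical.

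MiRNAs are short RNAs cut from hairpin precursors and loaded into Argonaute proteins, where they pair with messenger RNAs and lower their output. Pairing rests mainly on the seed, bases 2 to 8 of the mature RNA, so miRNAs with 1 seed share most of their possible targets. A precursor has a 5p and a 3p arm, and the arm that is loaded more often accumulates. In the olfactory bulb new interneurons arrive throughout life, and the miR-200 family is known from epithelia and from the maturation of olfactory neurons. The miR-183 cluster, which also holds miR-96 and miR-182, is known from sensory organs such as retina and inner ear. In the cerebellum most cells are granule neurons, and the tissue lies next to the choroid plexus of the fourth ventricle.

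The mature sequences below are those on which the comparison turns, taken from RefSeq (build GRCm38.p6), written 5′ to 3′ with the seed in capitals. The first set holds the miR-200 family members that were far more abundant in the olfactory bulb. MiR-200b-3p, miR-200c-3p and miR-429-3p share a seed. MiR-141-3p and miR-200a-3p share another, which differs from it by the substitution U4C, counted from the 5′ end of the mature RNA.
miR-200b-3p: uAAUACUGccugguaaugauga
miR-200c-3p: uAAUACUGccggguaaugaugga
miR-429-3p: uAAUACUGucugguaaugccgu
miR-141-3p: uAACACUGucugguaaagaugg
miR-200a-3p: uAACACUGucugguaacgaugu

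The second set is the miR-183 cluster, whose members were also higher in the olfactory bulb. Their seeds are near neighbours: from miR-182-5p to miR-96-5p the change is A8C, and from miR-96-5p to miR-183-5p it is U2A.
miR-182-5p: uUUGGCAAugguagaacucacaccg
miR-96-5p: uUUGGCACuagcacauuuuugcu
miR-183-5p: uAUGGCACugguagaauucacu

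The third set holds miRNAs that were more abundant in the cerebellum. MiR-195a-5p and miR-497a-5p have the same seed, as do miR-10a-5p and miR-10b-5p, and as do miR-34a-5p and miR-34b-5p.
miR-217-5p: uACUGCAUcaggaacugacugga
miR-216a-5p: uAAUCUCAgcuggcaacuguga
miR-133b-3p: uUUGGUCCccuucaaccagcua
miR-34a-5p: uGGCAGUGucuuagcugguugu
miR-34b-5p: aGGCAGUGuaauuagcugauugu
miR-195a-5p: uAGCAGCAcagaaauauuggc
miR-497a-5p: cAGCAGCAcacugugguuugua
miR-10a-5p: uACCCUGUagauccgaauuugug
miR-10b-5p: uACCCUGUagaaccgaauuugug

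The fourth set is a precursor with unequal change of its arms (miR-127), the activity-induced pair miR-132 and miR-212, and 2 olfactory bulb miRNAs that lie inside genes of neurotransmitter receptors (miR-490 and miR-592).
miR-127-3p: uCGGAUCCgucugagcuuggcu
miR-127-5p: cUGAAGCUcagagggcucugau
miR-132-3p: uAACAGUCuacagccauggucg
miR-212-3p: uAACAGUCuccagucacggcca
miR-490-3p: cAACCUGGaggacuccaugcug
miR-592-5p: aUUGUGUCaauaugcgaugaugu

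Total counts were 7924290, 11046151 and 10621850 in the cerebellum libraries and 13070794, 7499705 and 4951700 in the olfactory bulb libraries, and 2530737 to 10186496 in the knockout libraries. Of 1915 miRNA names, 1245 had a count in the 6 wild type libraries and 588 passed the filter on low counts, with at least 99.98% of the reads of each library. Levels are given as normalised CPM, the count scaled to a common depth with library sizes adjusted by the TMM method of edgeR. The libraries were amplified by PCR without molecular identifiers, so intervals from counts cover counting error only. Libraries of a group differed by more than sampling noise (chi-square per degree of freedom 28.4 to 203.7). Cerebellum replicate 3 stood apart by its low level of some members of the choroid plexus list (miR-1298, miR-448, miR-34b and miR-34c), while miR-204-5p and miR-211-5p were less uneven. Cerebellum replicate 2 stood apart by its higher traces of the miR-200 family. Values without these libraries stand beside the miR-200 family and the choroid plexus list.

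A miRNA was called when edgeR's quasi-likelihood F test gave a Benjamini-Hochberg adjusted p under 0.05 and the levels differed at least 2-fold. By this rule 206 of 588 miRNAs (35.0%) differed between the regions, 115 higher in the olfactory bulb (19.6%) and 91 lower (15.5%). A further 145 passed the adjusted p with a difference under 2-fold. The 3 libraries of each region did not overlap for 393 of the 588 (66.8%) and for 199 of the 206 called. The median log2 difference over all tested miRNAs was -0.00, but it depended on the scaling, at -0.26 with upper quartile factors and -0.27 with library size only. The split of calls moved with it, to 97 higher and 126 lower with upper quartile factors and to 92 and 129 with library size only. The differences below are relative to the TMM scale, and no called miRNA named below changed direction under any of the scalings.

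**Figure D1:**
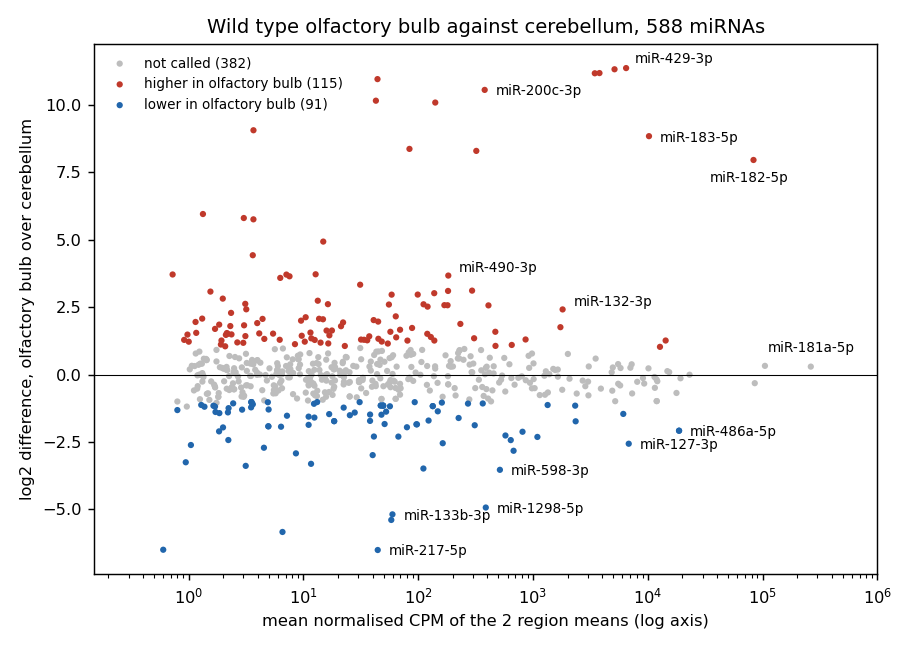
Log2 difference of olfactory bulb over cerebellum (vertical axis) against the mean of both regions' normalised CPM (log horizontal axis) for 588 miRNAs, 1 point each. The 115 higher miRNAs (red) reach 11.37, while the 91 lower ones (blue) reach about -6.51, and the most abundant miRNA, miR-181a-5p, lies near 0.

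The miR-200 family was the largest difference. Its 5 precursors lie in 2 clusters, miR-200b, miR-200a and miR-429 on chromosome 4 in an intron of Ttll10 and miR-141 and miR-200c on chromosome 6 (GRCm38, GENCODE M21). Of 10 mature members 8 were tested and 8 were called higher in the olfactory bulb (19.6% of all miRNAs were), with a median log2 difference of 11.07 against -0.00 for all miRNAs. The other 2 were not tested: miR-200c-5p had 37 counts in the olfactory bulb and miR-429-5p had 1, and neither had a count in the cerebellum. Of the tested members, miR-141-5p, miR-200a-5p, miR-200b-5p and miR-200c-3p passed the filter on low counts only through the olfactory bulb. Their tests could hardly end otherwise, so the number of calls is no separate support. In whole-tissue RNA, fewer cells of a type and less RNA per cell cannot be told apart, here or below.

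MiR-429-3p was at 14642, 12586 and 11552 normalised CPM in the olfactory bulb and at 2.44, 9.63 and 2.20 in the cerebellum. Every olfactory bulb library lay far above every cerebellum library, and the cerebellum held only traces. The log2 difference was 11.37 (SE 0.63, adjusted p = 1.48e-06 by edgeR and Benjamini-Hochberg). Its cluster partner miR-200a-3p was at 10439, 10969 and 9341 against 2.03, 8.23 and 1.34, a log2 difference of 11.33. MiR-200b-3p, of the same transcript, was at 7270, 7047 and 6388 against 1.52, 5.60 and 1.53 (log2 difference 11.18).

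The chromosome 6 members behaved alike in size. MiR-141-3p was at 7444, 7605 and 7680 normalised CPM in the olfactory bulb and 1.42, 5.76 and 2.30 in the cerebellum, a log2 difference of 11.18. MiR-200c-3p was the least abundant of the 3p arms, at 780, 790 and 704 against 0.203, 0.905 and 0.287 (log2 difference 10.56). In the cerebellum the highest value of each of these 5 arms was that of replicate 2. Without that library the log2 differences rose to 12.47 for miR-429-3p, 12.60 for miR-200a-3p, 12.17 for miR-200b-3p, 12.02 for miR-141-3p and 11.55 for miR-200c-3p. The size of these ratios therefore rests on few cerebellar reads, and the calls held with each library left out.

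The 5p arms rest on still fewer cerebellar reads. MiR-141-5p had 2017 counts in the olfactory bulb and 1 in the cerebellum, a scaled ratio of 2813 with a 95% counting interval of 504 to 111158. For miR-200b-5p the counts were 2061 and 2, a ratio of 1437 (interval 397 to 11875). For miR-200a-5p they were 6556 and 8, a ratio of 1143 (interval 580 to 2648). These intervals span more than 4-fold each, so the order of the 5p arms among themselves is not resolved. Without cerebellum replicate 2 the fitted log2 difference of miR-200a-5p was 12.15 and that of miR-200b-5p 12.56, and without replicate 1 that of miR-141-5p was 12.64.

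The miR-183 cluster, 3 precursors on chromosome 6, gave the most abundant of the differing miRNAs. All 6 of its mature arms were tested and 6 were called higher (19.6% of all miRNAs were), with a median log2 difference of 8.33. Of these, miR-182-3p, miR-183-3p and miR-96-3p passed the filter on low counts only through the olfactory bulb. Their calls are therefore no separate support. MiR-182-5p was at 171579, 156698 and 169024 normalised CPM in the olfactory bulb and at 614, 744 and 639 in the cerebellum. The olfactory bulb libraries lay close together and far above those of the cerebellum, by 249-fold (log2 difference 7.96, SE 0.17, adjusted p = 1.10e-08 by edgeR and Benjamini-Hochberg). MiR-183-5p was at 20356, 19390 and 21513 against 36.7, 50.4 and 46.1, a log2 difference of 8.84 (459-fold). MiR-96-5p, the member whose seed is mutated in forms of hereditary hearing loss, was at 670, 697 and 551 against 2.33, 1.48 and 2.30 (log2 difference 8.30).

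Within the cluster the arms kept the same order of abundance in both regions, miR-182-5p above miR-183-5p above miR-96-5p. The minor arms were also higher: miR-183-3p had 4013 counts in the olfactory bulb and 16 in the cerebellum, a ratio of 350 with a counting interval of 215 to 613. MiR-182-3p had 158 counts against 0, at least 73.4-fold higher when the cerebellum is set to 3 counts over the group. MiR-96-3p had 66 counts against 1, a ratio of 92.0 (interval 16.0 to 3690).

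**Figure D2:**
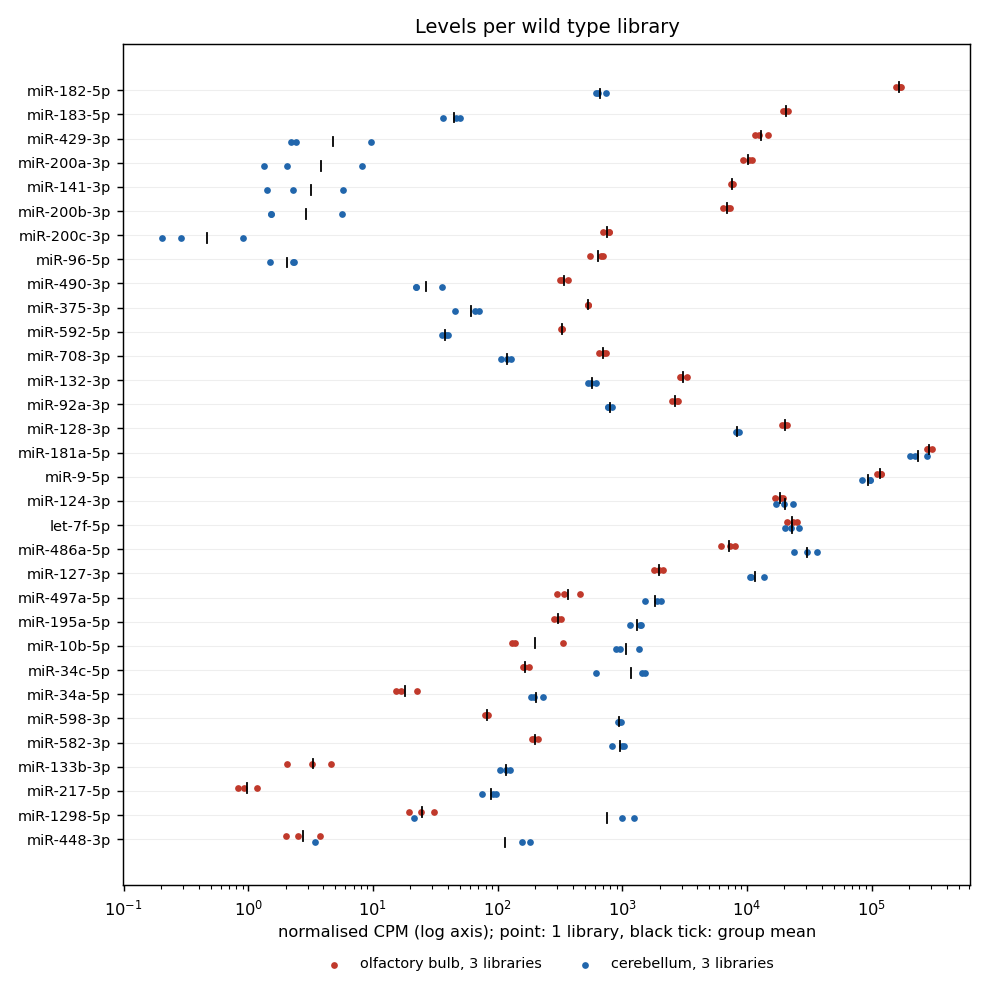
Normalised CPM (log axis) of 32 miRNAs in each wild type library, olfactory bulb in red and cerebellum in blue, with a black tick at each group mean. The members of the miR-200 and miR-183 groups at the top are separated by more than 100-fold, miR-181a-5p, miR-9-5p, miR-124-3p and let-7f-5p lie together, and at the bottom cerebellum replicate 3 lies among the olfactory bulb points for miR-1298-5p and miR-448-3p.

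Together the miR-183 cluster and the miR-200 family made up 21.5%, 19.8% and 20.1% of all miRNA reads in the olfactory bulb libraries. In the cerebellum libraries the same members made up 0.0822%, 0.0910% and 0.0684%. MiR-182-5p alone held 15.02% ± 0.723 (SD, n = 3) of the olfactory bulb reads, and no other counted miRNA in the RefSeq match carries its seed. Seeds were ranked only over names matched to RefSeq, whose lowest share of a library's reads was 85.97%. MiR-124-3p, with a mean of 1.66% of reads in the olfactory bulb and 2.21% in the cerebellum, was not among them. On that ranking the miR-182-5p seed was at 2 in the olfactory bulb and 51 in the cerebellum. The seed of miR-200b-3p, miR-200c-3p and miR-429-3p held 1.87% of the reads and ranked 7 in the olfactory bulb and 250 in the cerebellum. The seed of miR-141-3p and miR-200a-3p held 1.62% and ranked 11 against 263. By contrast the miR-181 seed ranked 1 in both, with 28.6% and 27.9%, and the miR-9-5p seed ranked 3 in both, with 10.5% and 10.2%.

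The 12 largest called differences upward at a mean of at least 50 CPM all belonged to these 2 groups, so further olfactory bulb miRNAs were chosen for description after their values were seen. MiR-490-3p, which lies in an intron of the muscarinic acetylcholine receptor gene Chrm2 on chromosome 6, was at 370, 319 and 329 normalised CPM in the olfactory bulb and 35.7, 22.0 and 22.1 in the cerebellum. Its log2 difference was 3.67 (SE 0.21, adjusted p = 1.75e-06 by edgeR and Benjamini-Hochberg). MiR-592-5p, in an exon of the metabotropic glutamate receptor gene Grm8 on chromosome 6, was at 331, 320 and 326 against 39.8, 35.8 and 38.2 (log2 difference 3.10). For both, every olfactory bulb library lay above every cerebellum library with little spread.

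MiR-375-3p, an endocrine miRNA best known from pancreatic islets and pituitary, was at 527, 527 and 530 normalised CPM in the olfactory bulb and 71.1, 66.5 and 45.4 in the cerebellum, a log2 difference of 3.11. Both arms of miR-708 were higher, miR-708-3p at 651, 710 and 739 against 129, 118 and 107 (log2 difference 2.57) and miR-708-5p with a log2 difference of 3.02. MiR-130b-3p (3.33) and miR-676-3p (2.58, in an intron of the ectodysplasin gene Eda on chromosome X) were also higher. MiR-224-5p, in an intron of the GABA receptor gene Gabre on chromosome X, had 178 counts in the olfactory bulb and 4 in the cerebellum, a ratio of 62.1 with a counting interval of 23.8 to 230.3. This miRNA passed the filter on low counts only through the olfactory bulb. MiR-28a-5p, which has the seed of miR-708-5p, went the other way, at 39.4, 45.9 and 40.7 against 135, 155 and 162 (log2 difference -1.84).

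Among 10 tested miRNAs known to respond to neuronal activity, 4 were higher (19.6% of all miRNAs were) and none lower, and the 4 were the arms of miR-132 and miR-212, which share 1 transcript on chromosome 11. MiR-132-3p, induced by CREB in active neurons and required by newborn olfactory bulb neurons for dendrite growth, was at 2948, 3297 and 2903 normalised CPM in the olfactory bulb and 612, 565 and 535 in the cerebellum. The groups lay far apart, with a log2 difference of 2.42 (SE 0.11, adjusted p = 6.04e-07 by edgeR and Benjamini-Hochberg). MiR-212-3p was at 280, 295 and 350 against 55.2, 49.6 and 50.7 (2.57), and the 5p arms differed by 2.52 (miR-132-5p) and 2.16 (miR-212-5p). The other activity-linked members were not called: miR-384-5p differed by 0.60, miR-146b-5p by -0.13 and miR-134-5p by 0.36. The list's median log2 difference was 0.48, against -0.00 for all miRNAs.

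The miR-17 and miR-92 clusters and their paralogs, known as miRNAs of dividing and progenitor cells, were higher for 9 of 16 tested members (19.6% of all miRNAs were) and lower for none, with a median of 1.18. MiR-92a-3p was at 2502, 2737 and 2781 normalised CPM in the olfactory bulb and 828, 773 and 771 in the cerebellum, a log2 difference of 1.76. MiR-17-5p (1.79), miR-20a-5p (1.63), miR-18a-5p (2.07) and miR-19b-3p (1.26), differed in the same direction. These miRNAs come from the chromosome 14 transcript Mir17hg, but miR-19b-3p and miR-92a-3p also have a copy on chromosome X, whose reads cannot be told apart. In the paralogous cluster inside the replication gene Mcm7, miR-25-3p was called (1.10), while miR-93-5p (0.91) and miR-106b-5p (0.86) were not. With library size only as the scaling miR-19b-3p (0.97) and miR-25-3p (0.81) fell under the 2-fold limit, as did miR-25-3p with upper quartile factors (0.85). Of 12 members that were not tested, 3 had no count. Among the higher members, miR-92a-1-5p passed the filter on low counts only through the olfactory bulb.

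Of 17 tested neuron-enriched miRNAs, 6 were higher, 2 lower and 9 not called (19.6% of all miRNAs were higher and 15.5% lower), with a median of 0.18. MiR-128-3p, which lowers neuronal excitability and lies in introns of R3hdm1 and Arpp21, was at 21096, 20306 and 19128 normalised CPM in the olfactory bulb and 8236, 8646 and 8326 in the cerebellum. The regions did not overlap, and the log2 difference was 1.26 (0.97 and under the 2-fold limit with library size only). Its minor arm miR-128-1-5p, made only from the R3hdm1 copy, differed by 2.60, at 94.5, 82.8 and 109 against 15.1, 15.5 and 16.6. The synaptic miRNAs miR-137-3p (1.22) and miR-153-3p (1.06) were higher, and miR-218-5p (-1.13) and miR-129-1-3p (-1.04) were lower. Another higher member, miR-218-1-3p (1.55), passed the filter on low counts only through the olfactory bulb. The pan-neuronal miR-124-3p, at 16662, 18780 and 19573 against 17051, 19920 and 23527, overlapped between regions (-0.14).

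Calls toward the olfactory bulb were also seen in 3 further groups (19.6% of all miRNAs were called higher). In the miR-7 and miR-671 list, which holds both arms of each precursor, 3 of 7 tested were higher: miR-7b-5p (2.07), miR-7a-5p (1.59) and the minor arm miR-7a-2-3p (3.71). Of these, miR-7a-2-3p passed the filter on low counts only through the olfactory bulb. MiR-7a-5p was at 63.6, 109 and 84.7 normalised CPM in the olfactory bulb and 29.0, 25.0 and 31.6 in the cerebellum, while the other minor arm, miR-7a-1-3p, overlapped between regions (-0.22). In the miR-221 and miR-222 cluster, linked to cell growth, 2 of 4 were higher, with miR-221-3p at 427, 474 and 420 against 151, 170 and 199 (1.35). Of 5 tested miR-344 family members, 3 were higher, among them miR-344d-3p (1.66) and miR-344c-3p (1.52), 1 was lower, miR-344b-3p (-1.41), and miR-344-3p was not called (0.29). The remaining higher member, miR-344f-3p, passed the filter on low counts only through the olfactory bulb.

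**Figure D3:**
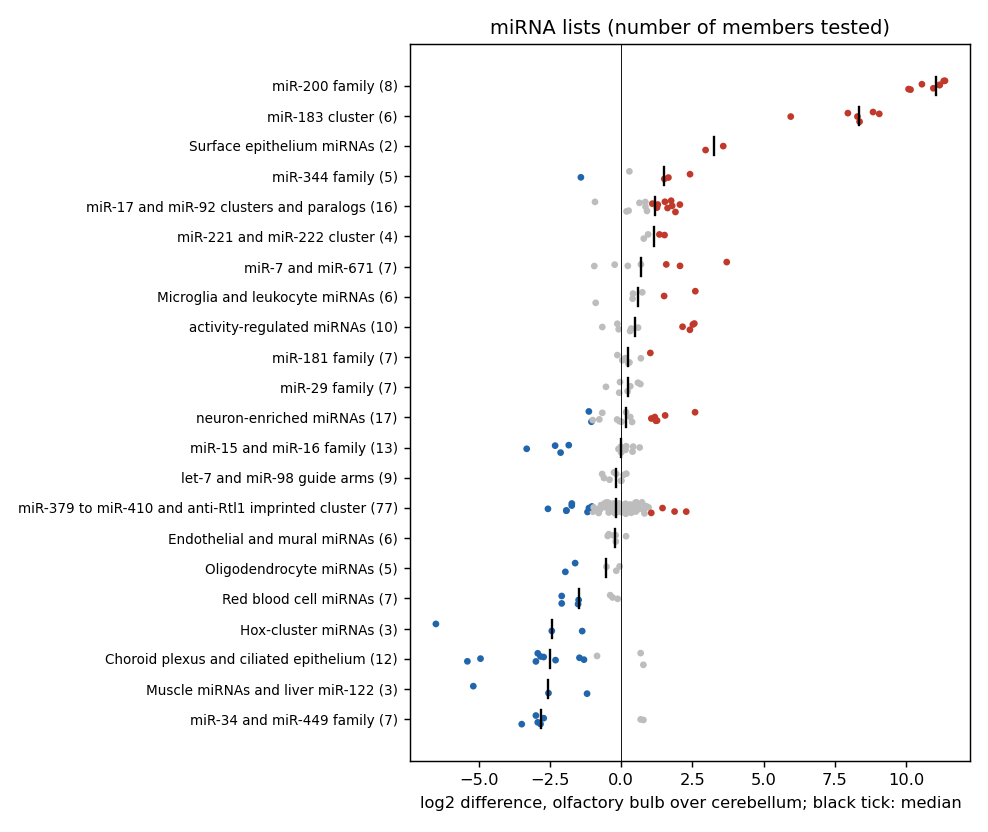
Log2 difference of olfactory bulb over cerebellum for the tested members of 22 miRNA lists, 1 point per miRNA, with a black tick at the list median; red points were called higher, blue lower and grey not called. The lists run from the miR-200 family, with a median of 11.07, to the miR-34 and miR-449 family, with a median of -2.83. The leftmost Hox-cluster point, miR-615-3p, had no olfactory bulb count, so its fitted value of -6.50 is no measured size.

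Among miRNAs that were higher in the cerebellum, the largest difference with counts in both regions was that of miR-217-5p, a miRNA best known from the exocrine pancreas. It was at 0.832, 1.16 and 0.916 normalised CPM in the olfactory bulb and at 74.6, 92.3 and 96.7 in the cerebellum. The regions were far apart, a 91.0-fold lower level in the olfactory bulb (log2 difference -6.51, SE 0.21, adjusted p = 7.67e-08 by edgeR and Benjamini-Hochberg). Its neighbour miR-216a-5p, in an intron of the same non-coding gene Gm12082 on chromosome 11, had 5 counts in the olfactory bulb and 421 in the cerebellum, a ratio of 0.0166 with a counting interval of 0.00535 to 0.0390. MiR-216b-5p, also on chromosome 11, had 4 counts against 57, a ratio of 0.0979. MiR-217-5p, miR-216a-5p and miR-216b-5p passed the filter on low counts only through the cerebellum, so their calls are no separate support.

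MiR-133b-3p, a muscle miRNA also described in midbrain dopamine neurons, was at 3.24, 2.04 and 4.58 normalised CPM in the olfactory bulb and 105, 118 and 126 in the cerebellum (log2 difference -5.18, SE 0.24, adjusted p = 6.12e-07 by edgeR and Benjamini-Hochberg). MiR-133a-3p, which shares most of its sequence with it and can exchange reads, was at 43.6, 43.1 and 57.2 against 279, 275 and 284 (-2.55). Both were thus higher in every cerebellum library. The muscle miRNAs that come from the same kind of transcript were almost absent: miR-1a-3p had 0 counts in the olfactory bulb and 6 in the cerebellum, and miR-206-3p 0 and 5. Among other untested members, miR-133b-5p (0 and 16 counts) and miR-122-5p (1 and 24) were also scarcer in the olfactory bulb. The heart miRNA miR-208b-3p went the other way, with 23 counts there and 11 in the cerebellum. Of 17 members of the list of muscle miRNAs with liver miR-122, 3 were tested and 3 were called lower (15.5% of all miRNAs were). The third was the heart miRNA miR-499-5p (-1.19), which lost its call without cerebellum replicate 2, olfactory bulb replicate 2 or olfactory bulb replicate 3 (adjusted p = 0.0600 to 0.0883 by edgeR and Benjamini-Hochberg). With DESeq2 its adjusted p was 0.0531, and without olfactory bulb replicate 1 the difference was -1.86. MiR-499-5p passed the filter on low counts only through the cerebellum, with 15, 4 and 2 counts in the olfactory bulb.

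MiR-598-3p, a neuronal miRNA, had one of the tightest differences, at 82.7, 84.0 and 78.7 normalised CPM in the olfactory bulb and 979, 918 and 945 in the cerebellum. The log2 difference was -3.53 (SE 0.10, adjusted p = 5.45e-08 by edgeR and Benjamini-Hochberg). Both arms of miR-582, from an intron of the phosphodiesterase gene Pde4d on chromosome 13, were lower in the olfactory bulb. MiR-582-3p was at 188, 198 and 211 against 826, 1038 and 991 (-2.26), and miR-582-5p differed by -2.30. MiR-192-5p and miR-194-5p, neighbours on chromosome 19 known from liver and gut epithelium, were lower by -1.73 and -1.88 on the log2 scale, miR-192-5p at 967, 1031 and 1265 against 2955, 3514 and 4374.

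The miR-34 and miR-449 family, whose 5p arms share a seed, is known for p53 responses and for ciliated cells. It was lower in the olfactory bulb for 5 of 7 tested members (15.5% of all miRNAs were) and higher for none, with a median of -2.83. The lower members include the 3p arms of miR-34b and miR-34c, which do not carry that seed. Of these, miR-34c-3p passed the filter on low counts only through the cerebellum. In the knockout libraries 8 members were tested, 2 called higher and 6 lower. MiR-34a-5p, on chromosome 4, was at 15.2, 22.6 and 16.9 normalised CPM in the olfactory bulb and 185, 197 and 230 in the cerebellum, a log2 difference of -3.48. MiR-34b and miR-34c come from another transcript, on chromosome 9. MiR-34c-5p was at 162, 160 and 180 against 1437, 1510 and 613 (-2.83), and miR-34b-5p at 7.73, 8.88 and 10.8 against 79.7, 99.4 and 34.3 (-2.99). For both, cerebellum replicate 3 was the lowest of its group yet above the olfactory bulb, and without it the differences were -3.12 and -3.31. The chromosome 13 members went the other way without a call, miR-449a-5p at 17.7, 22.7 and 22.0 against 11.7, 9.63 and 14.8 (0.78).

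MiR-127-3p, an imprinted placental and brain miRNA of the Dlk1-Dio3 region on chromosome 12, was at 1788, 1986 and 2139 normalised CPM in the olfactory bulb and 10790, 10504 and 13688 in the cerebellum. The log2 difference was -2.56 (SE 0.14, adjusted p = 1.53e-06 by edgeR and Benjamini-Hochberg). Few of its neighbours differed as much: of 98 members of this imprinted cluster 77 were tested, 4 were higher, 8 lower and 65 not called (35.0% of all miRNAs were called), with a median of -0.19. The lower members include both arms of miR-299a and of miR-299b. These had equal or nearly equal counts in each library, so the same reads appear to be counted under both names. Among the called members, miR-493-5p passed the filter on low counts only through the olfactory bulb and miR-494-3p only through the cerebellum. The more abundant neighbours miR-434-3p (-0.49), miR-411-5p (-0.52) and miR-381-3p (-0.99) were under 2-fold, at 3554, 3347 and 3553 against 6257, 7092 and 7377 for miR-381-3p. That miRNA lay at the 2-fold limit and was called with upper quartile factors (-1.24), library size only (-1.27), DESeq2 and its size factors (-1.01 each), TMM factors from the other miRNAs than the miR-183 and miR-200 groups (-1.0002), the fit on all 23 libraries (-1.06) and without cerebellum replicate 1 (-1.09). In the same cluster miR-369-5p went up, at 353.6, 360.9 and 384.4 against 100.8, 89.9 and 107.9 (1.88).

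The miRNAs of the Hox gene clusters, which mark the hindbrain and trunk, were lower in the olfactory bulb. Of 11 members 3 were tested and 3 called (15.5% of all miRNAs were lower). Of these, miR-615-3p passed the filter on low counts only through the cerebellum. MiR-10b-5p, in an intron of Hoxd4 on chromosome 2, was at 138, 130 and 335 normalised CPM in the olfactory bulb and 962, 899 and 1375 in the cerebellum, a log2 difference of -2.43. MiR-10a-5p, its near-identical relative, was at 59.3, 117 and 72.6 against 195, 170 and 275 (-1.36). Cerebellum replicate 3 was the highest of its region for both, while the highest olfactory bulb library was replicate 3 for miR-10b-5p and replicate 2 for miR-10a-5p. The groups did not overlap for either. MiR-615-3p had 0 counts in the olfactory bulb and 39 in the cerebellum, at least 9.32-fold lower in the olfactory bulb when it is set to 3 counts over the group. The miR-196 arms were not tested, with 0 to 6 counts per arm in the cerebellum and 0 in the olfactory bulb.

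MiR-195a and miR-497a, which share a seed and a transcript on chromosome 11 and restrain the cell cycle, were lower in the olfactory bulb with all 4 arms. MiR-195a-5p was at 304, 322 and 282 normalised CPM against 1161, 1411 and 1379 in the cerebellum (-2.12), and miR-497a-5p at 459, 339 and 299 against 1885, 2046 and 1522 (-2.31). These 4 arms were the only calls among 13 tested members of the miR-15 and miR-16 family (35.0% of all miRNAs were called and 15.5% were lower). MiR-16-5p, which has the same seed and is more abundant, overlapped between regions at 10768, 11482 and 10976 against 10856, 12081 and 12420 (-0.09). As raw shares of reads, not on the TMM scale, the seed as a whole took 1.10% in the olfactory bulb and 1.69% in the cerebellum, and miR-16-5p alone 0.991%, 1.05% and 0.968% against 1.35%, 1.33% and 1.22%.

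Markers of other cell types and of blood were read as whole lists. For red blood cells, 4 of 7 tested members were lower in the olfactory bulb, and the 4 were the arms of miR-486. MiR-486a-5p and miR-486b-5p had equal counts in 23 of 23 libraries, so they share reads, at 6179, 7282 and 7982 normalised CPM in the olfactory bulb and 24061, 30481 and 36213 in the cerebellum (-2.08). The defining erythroid miR-451a, at 81.9, 148 and 80.6 against 122, 146 and 136, overlapped (-0.38), and miR-144-3p differed by -0.30 without a call. The summed level of the list was 12493 to 16116 in the olfactory bulb and 48378 to 72714 in the cerebellum, nearly all of it miR-486 and counted under both names. With the miR-486b arms left out, 2 of 5 tested members were lower (15.5% of all miRNAs were) and the sum was 6290 to 8109 against 24248 to 36425.

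The choroid plexus and ciliated epithelium list was lower in the olfactory bulb for 9 of 12 tested members (15.5% of all miRNAs were), with a median of -2.51. All arms of miR-34b and miR-34c, from 1 transcript, are among the lower members. MiR-34c-3p and miR-204-3p passed the filter on low counts only through the cerebellum. MiR-449c-5p (0.69) and miR-449a-5p (0.78) went the other way without a call. In the knockout libraries 2 of 12 tested members were called higher and 8 lower. The summed level of the list was 3264 to 4026 normalised CPM against 8643 to 13801. The lowest of the cerebellum sums was that of replicate 3, and without that library 13 of 16 tested members were lower, with a median of -2.86. The members that entered the test there also passed the filter only through the cerebellum. MiR-1298-5p, in an intron of the choroid plexus serotonin receptor gene Htr2c on chromosome X, was at 19.3, 24.5 and 30.9 in the olfactory bulb and 988, 1243 and 21.4 in the cerebellum. MiR-448-3p, from the same gene, was at 2.00, 3.79 and 2.52 against 158, 180 and 3.45. Cerebellum replicate 3 lay within the olfactory bulb range for both, so the groups overlapped for both. Their log2 differences were -4.93 and -5.39 with all libraries (adjusted p = 0.00683 and 0.00584 by edgeR and Benjamini-Hochberg) and -5.49 and -5.95 without replicate 3. With limma-voom both calls were lost (adjusted p = 0.0794 and 0.140). With a replicate block miR-1298-5p lost its call too (-4.18, adjusted p = 0.0789 by edgeR and Benjamini-Hochberg).

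MiR-1912-3p, another product of Htr2c, had the same pattern in raw counts and was not tested, with 64, 86 and 0 counts in the cerebellum and 1, 1 and 1 in the olfactory bulb. MiR-204-5p, of choroid plexus and retinal pigment epithelium, in an intron of Trpm3 on chromosome 19, was less uneven, at 3778, 3039 and 2963 normalised CPM in the olfactory bulb and 8423, 10573 and 7887 in the cerebellum (-1.46). MiR-34b and miR-34c belong to this list as well, and how far choroid plexus tissue in the cerebellum samples shaped their values was not tested.

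Of 5 tested oligodendrocyte miRNAs 2 were lower in the olfactory bulb (15.5% of all miRNAs were), miR-219a-5p at 22.2, 33.0 and 44.0 normalised CPM against 124, 134 and 122 (-1.95) and miR-219a-2-3p (-1.61). The more abundant miR-338-3p was at 789, 872 and 760 against 1081, 1172 and 1196, a difference under 2-fold (-0.51). Of 6 tested microglia and leukocyte miRNAs 2 were higher (19.6% of all miRNAs were), miR-146a-5p at 103, 255 and 216 against 25.7, 26.3 and 42.0 (2.61) and miR-142a-5p at 124, 237 and 172 against 50.5, 73.3 and 62.8 (1.51). The leukocyte markers miR-142a-3p (0.75), miR-223-3p (0.42) and miR-150-5p (-0.89) were not called. None of 6 endothelial and mural miRNAs was called (35.0% of all miRNAs were), with miR-126a-3p at -0.19 and miR-143-3p at -0.18.

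The surface epithelium list was higher in the olfactory bulb for both tested members (19.6% of all miRNAs were). Of these, miR-205-5p passed the filter on low counts only through the olfactory bulb. MiR-203-3p, a miRNA of epidermis and nasal mucosa, was at 165, 207 and 154 normalised CPM against 21.9, 19.0 and 26.4 (2.97). MiR-205-5p, of the same kind of epithelia, was at 9.98, 11.9 and 13.0 against 0.711, 1.48 and 0.575 (3.59, and 4.18 without cerebellum replicate 2). The summed list level was 168 to 220 in the olfactory bulb and 20.7 to 27.0 in the cerebellum. The miR-200 family is also expressed in such epithelia, and the part that adherent epithelial tissue may have in its level was not tested.

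Several of the most abundant miRNAs differed little. MiR-181a-5p was at 282476, 280248 and 305272 normalised CPM in the olfactory bulb and 204625, 223302 and 279356 in the cerebellum, without a call (log2 difference 0.30, adjusted p = 0.141 by edgeR and Benjamini-Hochberg). Its relative miR-181b-5p, at 15531, 17701 and 18127 against 7555, 8142 and 9472, passed by a small margin (1.03) and fell under 2-fold without cerebellum replicate 1 (0.92) or olfactory bulb replicate 2 (0.97), in the fit on all 23 libraries (0.96), and with both scalings named above. MiR-9-5p (0.32), miR-26a-5p (-0.32) and miR-30a-5p (-0.68) were not called. None of 9 let-7 and miR-98 guide arms was called (35.0% of all miRNAs were), with a median of -0.17. Among them let-7f-5p was at 20816, 25050 and 23264 against 20408, 22605 and 26361. None of 7 tested miR-29 family members was called, against the same 35.0% of all miRNAs.

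The same contrast was made in the 6 knockout libraries, which the wild type comparison did not use. There 570 miRNAs were tested, 120 were higher in the olfactory bulb (21.1%) and 71 lower (12.5%), with 33.5% called in all. Upper quartile factors turned this split to 80 higher and 112 lower, and library size only to 74 and 119. Of 196 miRNAs called in wild type and tested in knockout, 195 had the same direction and 165 were also called, which is 84.2% of these wild type calls and 88.2% of the 187 knockout calls tested in wild type. Of the 54 called miRNAs named by rule, 53 were tested in knockout and 52 were called in the same direction. The exception was miR-499-5p, at 0.05. Across 566 miRNAs the log2 differences in the 2 genotypes correlated with a Pearson r of 0.985 and a Spearman rho of 0.961, as a description over miRNAs that are not independent replicates. With the miR-183 cluster and the miR-200 family left out, the Pearson r was 0.974 over 550 miRNAs.

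In the knockout libraries miR-429-3p differed by 13.53 and miR-200b-3p by 13.40 on the log2 scale, with cerebellum values of 0.776, 1.76 and 1.05 normalised CPM for miR-429-3p. MiR-182-5p differed by 8.13 and miR-183-5p by 9.13. MiR-217-5p (-5.96), miR-133b-3p (-5.25), miR-598-3p (-3.27), miR-127-3p (-2.43) and miR-10b-5p (-2.66) were again lower, and miR-132-3p (2.67) again higher. The choroid plexus miR-1298-5p varied here too, at 186, 709 and 358 in the cerebellum and 42.5, 19.6 and 24.9 in the olfactory bulb, yet without overlap. MiR-375-3p was at 644, 580 and 1490 against 29.3, 69.4 and 31.1, a log2 difference of 4.39, with knockout olfactory bulb replicate 3 the highest.

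Whether the region difference itself changed with genotype was tested with the interaction term over the 12 libraries. None of 605 miRNAs passed by edgeR after Benjamini-Hochberg adjustment (0%, smallest adjusted p = 0.9997), 12 had an unadjusted p under 0.05, and DESeq2 called 0. The smallest unadjusted values belonged to miR-466h-3p (wild type minus knockout difference 5.68, SE 1.63), miR-200b-3p (-2.17, SE 0.67), miR-429-3p (-2.10, SE 0.66) and miR-466i-5p (-5.08, SE 1.69). For the miR-200 members the term compares traces in the cerebellum libraries, and wild type replicate 2 held the most of them.

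**Figure D4:**
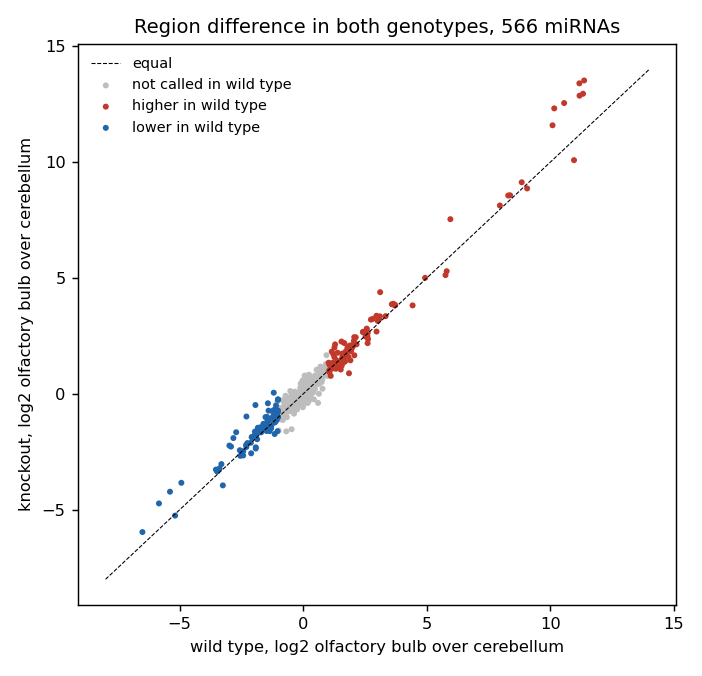
Log2 difference of olfactory bulb over cerebellum in knockout libraries (vertical axis) against that in wild type libraries (horizontal axis) for 566 miRNAs, coloured by the wild type call, with the dashed line marking equal values. The points follow the line from miR-217-5p (-6.51 and -5.96) to the miR-200 family, whose members lie mostly above it.

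The ratio of the 5p to the 3p arm of a precursor does not depend on library scaling, and it was compared for the 165 precursors whose arms both passed the filter, with limma on log2 ratios after adding 0.5 to each count. Of these, 20 ratios (12.1%) differed at an adjusted p under 0.05 and at least 2-fold, 10 toward 5p and 10 toward 3p in the olfactory bulb. The more abundant arm was the same in both regions for most precursors, 5p for 85 and 3p for 72, and differed for 8, of which 5 were called. With each library left out in turn 9 of the 20 kept the call, 6 toward 5p and 3 toward 3p (miR-127, miR-96, miR-99a, miR-369, miR-673, miR-92b, miR-376b, miR-200b and miR-28a). In the cerebellum miR-96-3p had 1, 0 and 0 counts and miR-200b-5p 0, 2 and 0, so the added 0.5 largely sets those ratios. For miR-96 and miR-200b, keeping the call therefore does not show a shift between the arms. The number toward 3p fell to 4 without cerebellum replicate 2, olfactory bulb replicate 2 or olfactory bulb replicate 3, and to 5 without cerebellum replicate 3.

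The clearest case was miR-127, whose arms are printed above. Its 3p arm was 5.92-fold lower in the olfactory bulb while its 5p arm, at 330, 303 and 312 normalised CPM against 334, 361 and 384, differed by -0.19 without a call. The log2 ratio of 5p to 3p was -2.44, -2.71 and -2.78 in the olfactory bulb and -5.01, -4.86 and -5.16 in the cerebellum. All 3 olfactory bulb libraries were closer to equal arms, by a change of 2.37 (SE 0.17, limma and Benjamini-Hochberg adjusted p = 0.000534). In the knockout libraries the 2 arms differed between regions by -2.43 (3p) and -0.07 (5p).

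Toward 5p, the largest changes beside miR-127 were in miR-7b, miR-96 and miR-99a. The miR-7b ratio changed by 3.21 and rested on a rare 3p arm of 0.437 to 2.22 normalised CPM, and it was not called without olfactory bulb replicate 3. The miR-96 ratio (2.98) rested on 1 cerebellar count of its 3p arm. For miR-99a the change was 1.44: miR-99a-5p overlapped between regions (0.07) while miR-99a-3p, at 27.6, 29.1 and 31.1 against 71.0, 74.9 and 81.5, was lower (-1.38). Toward 3p, the largest change was that of miR-3069 (-2.19). MiR-376b changed by -1.76 and its leading arm switched from 5p in the cerebellum to 3p in the olfactory bulb, with mean log2 ratios of 0.95 and -0.81. MiR-296 (-1.48) and miR-200b (-1.41) followed, the latter with 2 cerebellar counts of its 5p arm. The calls of miR-296 and miR-3069 were each lost in several of the fits that left out a library.

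**Figure D5:**
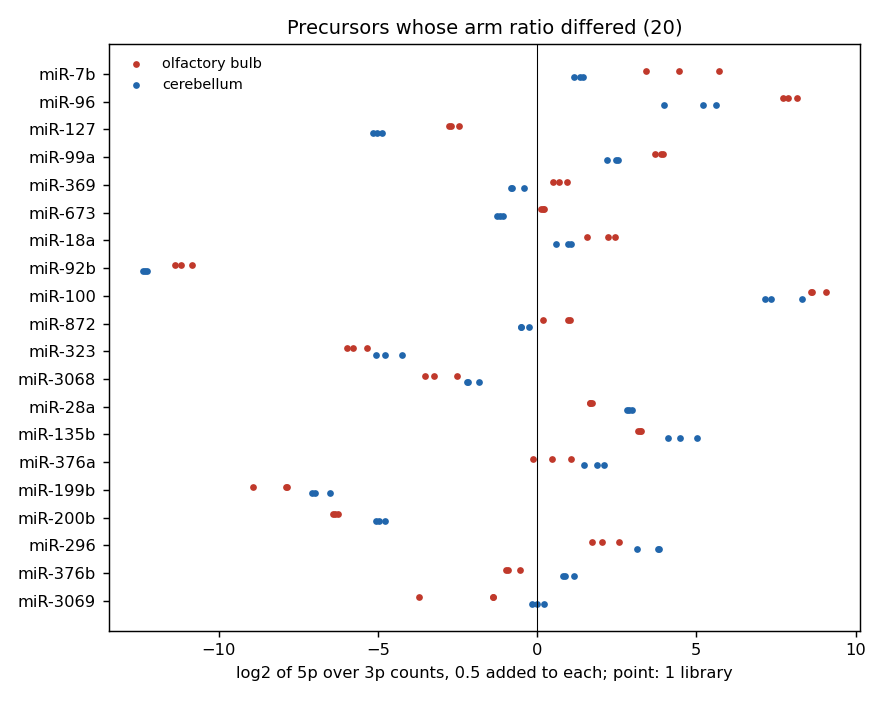
Log2 ratio of 5p to 3p counts, with 0.5 added to each, in every wild type library for the 20 precursors whose ratio differed, olfactory bulb in red and cerebellum in blue. Points right of the line at 0 have more 5p than 3p, and miR-127 lies near -5.01 in the cerebellum and near -2.64 in the olfactory bulb. The libraries of the regions do not overlap for any of the 20, nor for 77 of all 165 precursors compared, these 20 included.

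The wild type cortex and hippocampus libraries place these differences, on TMM factors computed over the 12 wild type libraries. These values are on another scale than those above and are compared only among themselves. MiR-127-3p was at 2331 to 2604 in the olfactory bulb, 3278 to 4363 in the cortex, 14927 to 18440 in the cerebellum and 17021 to 18400 in the hippocampus, so cerebellum and hippocampus overlapped at the top. MiR-132-3p was at 3533 to 4265 in the olfactory bulb and 3316 to 3922 in the cortex, which overlapped, then 1344 to 1736 in the hippocampus and 721 to 908 in the cerebellum. MiR-128-3p had a similar order, with cortex (26661 to 28668) overlapping the olfactory bulb (23282 to 27496) and the cerebellum lowest (11216 to 12287).

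Other differences were set by a single region. MiR-217-5p was at 111 to 131 in the cerebellum, against 3.10 to 6.90 in the cortex, 1.08 to 1.51 in the olfactory bulb and 0.735 to 0.9997 in the hippocampus. MiR-133b-3p, at 155 to 169 in the cerebellum, did not exceed 12.7 in any library of the other regions. MiR-195a-5p was at 1722 to 2005 in the cerebellum and at 343 to 417 in the olfactory bulb, itself above cortex (136 to 162) and hippocampus (170 to 200).

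On the olfactory bulb side, miR-375-3p was at 646 to 687 there and at most 160.9 in the libraries of the other regions, which overlapped one another. MiR-490-3p was at 400 to 482 in the olfactory bulb, 90.2 to 110 in the cortex, 38.0 to 44.9 in the hippocampus and 29.8 to 53.0 in the cerebellum. MiR-182-5p was lowest in the hippocampus (130 to 246), not in the cerebellum (861 to 1057), and cortex libraries held 2674 to 5064. MiR-429-3p had another order, with 207 to 415 in the cortex, 22.6 to 34.2 in the hippocampus and 2.97 to 13.7 in the cerebellum. The groups at neighbouring ranks did not overlap for either.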

How the data were processed

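The authors deposited 1 table of whole-number read counts for each library, with a row for each mature miRNA name. Per the submitters' processing notes, mm9 was the genome build. The choice of aligner, counting program, annotation version and treatment of reads with several matches is not given in the sources used here, so close relatives may exchange reads. No coordinates are printed, since the reference at hand was GRCm38. In R 4.3.3, edgeR 4.0.16 kept miRNAs by filterByExpr (minimum count 10, minimum total 15), scaled libraries by TMM and fitted a quasi-likelihood model to the 6 wild type libraries. Standard errors are the size of the log2 difference over the root of F. Arm ratios used limma 3.58.1. DESeq2 1.42.0, limma-voom, other scalings, no filter, a replicate block, a fit on all 23 libraries and leaving out each library were alternatives. The fits were tested on simulated data. Of 588 tested miRNAs 499 matched RefSeq.

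Named miRNAs were the 12 largest called differences in each direction at a mean of at least 50 CPM without overlap, the 10 most abundant, and up to 4 members per list. Members and lists were chosen with earlier results of these data known.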

Additional observations from a re-analysis of the deposited data

How the results depend on the processing

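Over 15 settings the 71 called miRNAs named in the text kept their direction in every fit and their call in 1049 fits, losing it in 16. The 41 named but uncalled miRNAs gained a call in 15 fits and changed sign in 19. With upper quartile factors and with library size only, the changed signs were those of let-7c-5p (-0.16 and -0.19), miR-15a-5p (-0.098 and -0.13) and miR-181a-1-3p (-0.00543 and -0.034). With a library left out, values on both sides of 0 were reached by let-7c-5p (-0.056 to 0.21), let-7f-5p (-0.13 to 0.12), miR-29c-3p (-0.094 to 0.085), miR-124-3p (-0.28 to 0.0096), miR-146b-5p (-0.37 to 0.29), miR-181c-5p (-0.29 to 0.036) and miR-143-3p (-0.29 to 0.0029).

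Wild type counts stayed within 1.5 times, at 110 to 117 higher and 77 to 104 lower with a library left out. Knockout counts moved to 112 lower with upper quartile factors, to 74 higher and 119 lower with library size only, and to 109 lower with no filter. With no filter the genotype interaction had 6 calls, against 0 with it. Arm ratios toward 3p ranged from 4 to 10 with a library left out, and those toward 5p from 7 to 15. The cause of these shifts was not tested.

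By the rule used, replicate numbers did not pair the samples: same-numbered wild type libraries correlated in their deviations from the region means at 0.20, 0.093 and 0.067, and knockout ones at 0.086, 0.040 and -0.012. In wild type each sample correlated best with its own number, a hint from the data only. With the replicate block 116 miRNAs were higher and 82 lower in wild type, 121 and 77 in knockout, miR-1298-5p lost its call (-4.18, adjusted p = 0.0789 by edgeR and Benjamini-Hochberg), and 6 arm ratios were called toward 3p. Differences that rest on a few reads, such as those of the 5p arms of the miR-200 family, are limited by depth.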

Other observations

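Of 39 groups of precursors within 10 kb that had at least 2 tested miRNAs, 24 held fewer than 2 called miRNAs and 15 held 2 or more, and in 13 of these 15 every called arm went in 1 direction. Mature miRNAs with several precursors are counted in each, and 9 stand in more than 1 group. The other 2 both lie in the imprinted region of chromosome 12. Besides the clusters described in the report, miR-199a and miR-214 on chromosome 1, and miR-296 and miR-298 on chromosome 2, each had 2 arms higher in the olfactory bulb. The red blood cell pair miR-144 and miR-451a had no called arm, and neither did miR-23a, miR-27a and miR-24 on chromosome 8. Of the let-7 clusters, that of miR-99a and let-7c-1 on chromosome 16 had both rare 3p arms lower, let-7c-1-3p with 26 counts in the olfactory bulb against 79 in the cerebellum.

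Among the miRNAs matched to RefSeq, 14 seeds had at least 2 called members, and 13 of these had all calls in 1 direction. Where names share reads, as the arms of miR-299a and miR-299b appear to, this agreement is built in. The share to be expected without any link was not computed. The seed with calls in both directions was that of miR-28a-5p, lower in the olfactory bulb (-1.84), and miR-708-5p, higher there (3.02). In the imprinted cluster the miR-299 arms were lower, miR-299a-3p at 8.73, 8.74 and 8.24 normalised CPM in the olfactory bulb and 27.3, 28.5 and 29.8 in the cerebellum (-1.73), while miR-493-5p was higher at 2.83, 4.80 and 4.12 against 0.812, 0.741 and 0.766 (2.29). The abundant miR-101a-3p stood just under the 2-fold limit (-0.98), at 7209, 8282 and 8526 against 14363, 16795 and 16342.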
